A study of Mus musculus with 12 samples.

Results

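The comparison described here is the difference between 2 activation responses of mouse CD8 T cells, the response to anti-CD3 in the presence of AGN192403 and the response with vehicle. It was read from the 8 control-guide libraries of the 12 libraries in the series, 2 for each of 4 groups, which were taken by their labels. The groups were activated cells with AGN192403, activated cells with vehicle, resting cells with AGN192403 and resting cells with vehicle. All were OT-I/Cas9 CD8 T cells, spleen cells of mice that carry a transgenic T cell receptor for an ovalbumin peptide and express the nuclease Cas9, and all carried the control guide and had grown with puromycin, IL-2, IL-7 and IL-15. AGN192403, which was first described as a ligand of imidazoline receptors, was added at 100 µM for 24 h, and water was the vehicle. Activated cells stood on plates coated with anti-CD3 (2.5 µg/mL) for the same time, and resting cells were cultured as long without it. Per the study's methods, T cells were activated on antibodies before the guides were delivered, so a resting cell is one that was not restimulated. The labels do not say whether the 2 libraries of a group came from separate cultures or mice, and p-values therefore measure only the spread between these libraries, which may be technical. The study's methods took such cells from the spleens of male and female mice, and which animals gave these libraries, and their age, is not given in the sources used here. The Tmed10 knockout libraries entered the fit for its estimate of the spread and are not described.

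An activated T cell signals from its receptor through calcium, MAP kinases and NF-kB to fast transcription factors of the EGR, AP-1 and NFAT families. It then makes cytokines, builds ribosomes and charges tRNAs for growth, and enters the cell cycle, while inhibitory receptors such as PD-1, CTLA-4 and TIM-3 appear on its surface. AGN192403 was used by the study to lower TMED proteins, which carry cargo between the endoplasmic reticulum (ER) and the Golgi. A difference in response can come about in 2 ways that a comparison of activated cells alone cannot separate. The compound may shift the resting level, so that activation starts elsewhere, or it may shift the level reached after activation. The response difference equals the AGN192403 effect in activated cells minus the AGN192403 effect at rest, both on the log2 scale, so each gene can be described by these 2 terms.

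The labelled cell type was checked against 10 CD8 T cell markers, all of which passed the filter on low counts and which summed to between 2910 and 4790 CPM per library, where CPM is a gene's reads as a share of the library total after scaling for library composition. Of the defining markers of other lineages, Cd4 was at 0.52 to 0.752 CPM as group means and Ms4a1, Pax5 and Csf1r had no read. Other members of those lists were present. The 6 B cell markers summed to 33.9 to 39.3 CPM in activated cells with AGN192403 and 29.7 to 33.1 with vehicle, and to 138 to 143 at rest with AGN192403 and 137 to 143 with vehicle, nearly all of it Ighm. The 5 mast cell markers, nearly all Kit, summed to 53.1 to 54 CPM in activated cells with AGN192403 and 44.1 to 46.7 with vehicle, and to 48.5 to 52.6 at rest with AGN192403 and 77.8 to 80.9 with vehicle. The 6 stromal markers, mostly Pecam1, summed to 23.2 to 25.1 CPM in activated cells with AGN192403 and 28.4 to 30.6 with vehicle, and to 86.7 to 89.5 at rest with AGN192403 and 103 with vehicle. The 4 NK cell markers were nearly all Eomes, which is described below as a factor of CD8 memory. They summed to 109 to 117 CPM in activated cells with AGN192403 and 82.1 to 82.6 with vehicle, and to 130 to 138 at rest with AGN192403 and 163 to 174 with vehicle. The part of such cells in the results was not tested. Total counts ran from 9283133 to 13697762 in the 8 libraries, and replicates correlated at 0.992 to 0.995. The 2 activated libraries with AGN192403 differed most from each other, with a chi-square per degree of freedom of 4.02 against 1.39 to 2.3 in the other 3 groups. Without the first of them 2272 genes were called for the response difference, and without the second 2842. The call counts fell most without replicate 2 of the resting AGN192403 cells, where 1782 genes were called.

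The activation response differed between AGN192403 and vehicle in 2592 of 13167 genes tested (19.7%; edgeR quasi-likelihood test, Benjamini-Hochberg adjusted p under 0.05). The response was higher with AGN192403 in 1135 genes (8.62%) and lower in 1457 (11.1%). The counts of called list members below are to be read against these shares. A difference of at least 2-fold was seen in 102 of the higher and 61 of the lower genes. The median standard error (SE) of a response difference was 0.128 on the log2 scale. Activation itself changed far more genes, 9217 with AGN192403 (70%) and 9714 with vehicle (73.8%). These 2 responses share no library, and across the genes tested their log2 fold changes had a Pearson r of 0.906 and a Spearman rho of 0.904. Their standard deviations were 1.33 with AGN192403 and 1.38 with vehicle. A total least squares line, which treats the 2 responses alike and is not a regression of 1 on the other, had a slope of 0.959. Genes are not independent replicates, so the correlation is a description.

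Within a state, AGN192403 changed 4570 genes in activated cells (34.7%; 2158 higher, 16.4%, and 2412 lower, 18.3%) and 3341 at rest (25.4%; 1533 higher, 11.6%, and 1808 lower, 13.7%). Counts of list members raised or lowered within a state are to be read against these shares. The split of higher and lower calls depended on the scaling. With library totals in place of the scaling for composition, 58.2% of the genes called in activated cells and 58.3% of those called at rest were higher, in place of 47.2% and 45.9%. For the response difference, 46.2% of calls were higher in place of 43.8%. That share was 37.6% without the filter on low counts and 49.6% in the 8 control-guide libraries alone. It was 50.6% and 50.7% without replicate 1 and 2 of resting AGN192403 cells, and 50.5% without replicate 2 of activated vehicle cells, so the excess of lower over higher responses did not hold in every alternative. The 2 compound effects share no library. Their log2 values had a Pearson r of 0.278 and a Spearman rho of 0.348 across genes.

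The 2592 genes were divided by the state in which the AGN192403 effect was called. In 1154 (44.5%) it was called in activated cells only, in 557 (21.5%) at rest only, in 494 (19.1%) in both states and the same direction, in 273 (10.5%) in both states and opposite directions, and in 114 (4.4%) in neither. A missing call is not evidence of no effect, and the state calls use the same libraries as the response difference. The classes rest on these calls, so the values that follow describe them and test nothing. In the activated-only class the median absolute effect was 0.351 in activated cells and 0.0779 at rest, and 1053 of the 1154 genes had a resting effect under 0.2. In the rest-only class the median absolute effect was 0.0691 in activated cells and 0.291 at rest, and 510 of the 557 genes had an activated effect under 0.2. Sorted only by the larger absolute effect, 1721 genes (66.4%) differed more in activated cells and 871 (33.6%) more at rest.

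**Figure D1:**
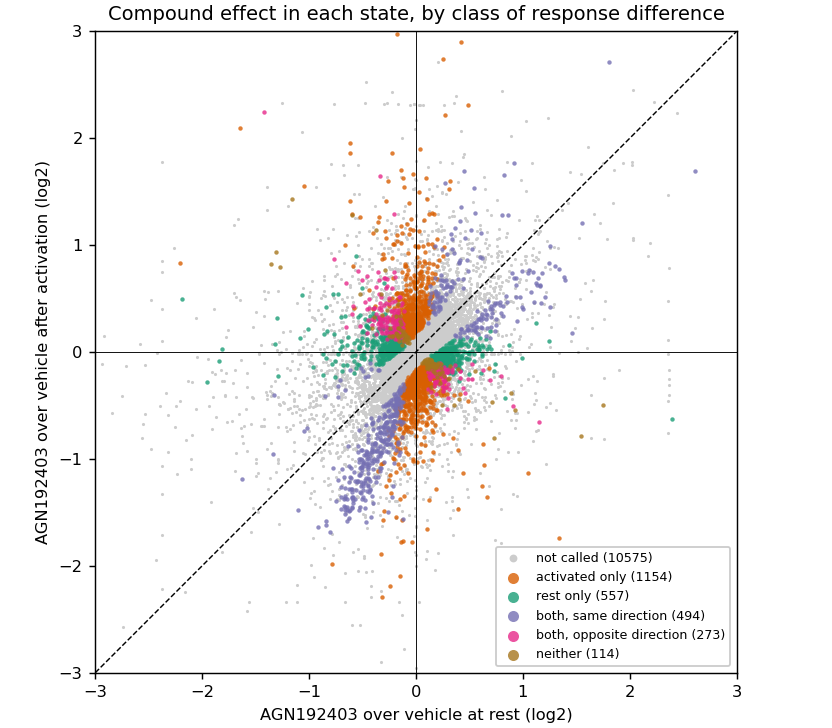
AGN192403 effect on each gene in activated cells (vertical axis, log2) against its effect at rest (horizontal axis, log2). Each point is a gene, colours give the class of the 2592 genes called for the response difference, grey points were not called, the dashed line marks equal effects, and 90 genes beyond 3 log2 units are outside the axes. The 1154 genes called in activated cells only lie along the vertical axis and the 557 called at rest only along the horizontal axis.

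The 494 genes shifted the same way in both states were uneven. Of these, 318 were lower with AGN192403 in both states, and 299 of the 318 fell further in activated cells than at rest. The other 176 were higher in both states, 83 of them more so in activated cells and 93 more so at rest. Of the 273 genes with opposite effects, 161 were lower with AGN192403 at rest and higher in activated cells, and 112 were higher at rest and lower in activated cells. The activated-only class held 529 higher and 625 lower genes, and the rest-only class held 261 genes higher and 296 lower at rest.

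**Figure D2:**
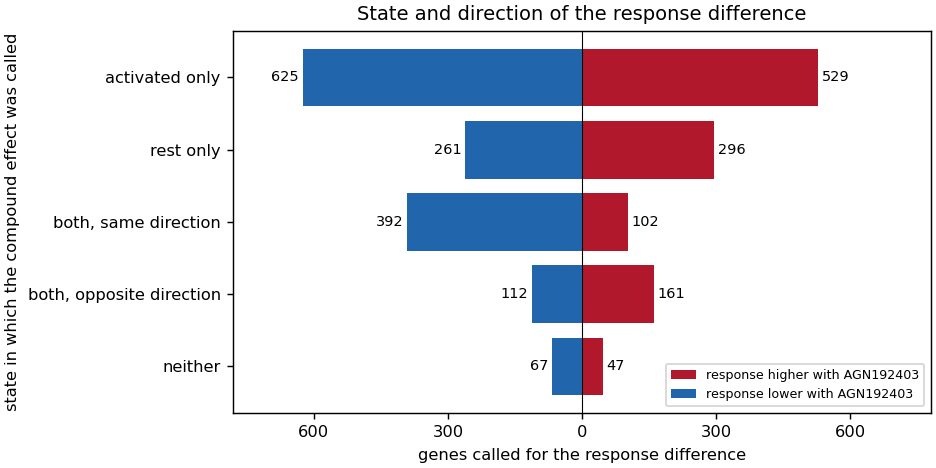
Number of genes called for the response difference (horizontal axis) by the state in which the AGN192403 effect was called (vertical axis). Bars to the right count genes with a higher response with AGN192403 and bars to the left those with a lower response. Lower responses dominate the class shifted the same way in both states, with 392 lower and 102 higher.

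Mitotic genes were prominent among those lower in both states. Of 61 genes of the G2 and M phases tested, 57 had a lower response with AGN192403 and 4 were not called, with a median response difference of -0.70, where the median of all genes tested was -0.0155. AGN192403 lowered 60 of them in activated cells (median -1.22) and 58 at rest (median -0.503), and 56 fell in the class lower in both states. Activation lowered these genes in the cultures with AGN192403 (median log2 -1.58) and less so in those with vehicle (median -0.87). In bulk RNA, fewer cells in a phase and less RNA per cell cannot be told apart. With any 1 of the 8 libraries left out, 55 to 57 members were called lower.

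Aurka, which encodes the mitotic kinase Aurora A, had 15.6 and 17.9 CPM in activated cells with AGN192403, against 51.5 and 47.6 with vehicle. At rest it had 40.6 and 42.8 CPM with AGN192403, against 64.5 and 64.8 with vehicle. The libraries did not overlap in either state, and the shortfall was greater after activation, by -0.92 ± 0.10 (log2 ± SE, adjusted p = 5.4e-07). Ttk, encoding the spindle checkpoint kinase MPS1, had 7.83 and 9.33 CPM in activated cells with AGN192403 against 22.2 and 22.2 with vehicle, and 28.5 and 29.1 at rest with AGN192403 against 35.1 and 32.5 with vehicle. Its response difference of -1.13 ± 0.14 was the largest of the list together with that of Nek2 (-1.13 ± 0.11), a centrosome kinase. Kif2c, a microtubule-depolymerising kinesin, and Ndc80, a kinetochore protein that binds microtubules, differed by -0.92 ± 0.12 and -0.91 ± 0.12. Mki67, the proliferation marker Ki-67 and singled out after its values were seen, had 198 and 163 CPM in activated cells with AGN192403, against 479 and 444 with vehicle. At rest Mki67 had 553 and 564 CPM with AGN192403, against 935 and 879 with vehicle.

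Promoters of Aurka and Ttk are shown because the mitotic genes moved together and many of their start sites carry the same short motif. Sequences are from RefSeq (GRCm38.p6), from 250 bases before to 50 after the annotated start, in the direction of transcription. Capitals mark TTTGAA, the core of the cell cycle genes homology region, or its reverse complement. The Aurka window is chr2:172370521-172370820 on the minus strand and the Ttk window is chr9:83834439-83834738 on the plus strand.
Aurka: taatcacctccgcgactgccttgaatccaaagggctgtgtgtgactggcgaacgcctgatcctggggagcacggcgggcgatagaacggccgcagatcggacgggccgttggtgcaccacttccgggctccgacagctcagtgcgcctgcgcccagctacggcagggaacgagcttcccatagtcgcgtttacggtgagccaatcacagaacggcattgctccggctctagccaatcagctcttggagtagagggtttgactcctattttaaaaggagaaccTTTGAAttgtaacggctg
Ttk: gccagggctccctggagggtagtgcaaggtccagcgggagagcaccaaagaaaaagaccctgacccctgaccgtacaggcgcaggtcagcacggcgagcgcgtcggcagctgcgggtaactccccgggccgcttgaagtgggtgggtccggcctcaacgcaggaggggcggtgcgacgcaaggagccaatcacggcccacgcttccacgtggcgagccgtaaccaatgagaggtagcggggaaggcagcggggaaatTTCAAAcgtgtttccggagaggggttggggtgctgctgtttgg
The match begins 32 bases after the start in Aurka and 7 after it in Ttk. Of the 61 G2 and M phase genes, 52 were matched to the table with 56 windows, and 40 of these (71.4%) held TTTGAA on either strand. The share was 12.1% of the 12250 windows of genes tested and 17.9% of all 32851 windows. CCAAT, counted separately on both strands, stood in 75.0% of the mitotic windows against 37.8% of those of genes tested. It was not particular to the mitotic list. Its share was 71.1% for ER chaperones and unfolded protein response genes, 57.7% for S phase genes and 53.8% for aminoacyl-tRNA synthetases. A match describes these letters and is not evidence of binding.

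S phase genes moved in the same direction and by less. Of 55 tested, 46 had a lower response with AGN192403 and 9 were not called, with a median response difference of -0.471, and medians of -0.735 in activated cells and -0.234 at rest. Cdc45, a helicase component of the replication fork, had 35.9 and 33.2 CPM in activated cells with AGN192403, against 65.8 and 68.7 with vehicle, and 54.7 and 55.1 at rest with AGN192403, against 61.6 and 61.3 with vehicle. Activation therefore changed Cdc45 by -0.68 on the log2 scale with AGN192403 and by 0.13 with vehicle, a response difference of -0.81 ± 0.09 (adjusted p = 3.4e-07). Prim1, the DNA primase subunit, differed by -0.72 ± 0.08. Cdkn2b, which encodes the CDK4/6 inhibitor p15, went the other way (0.81 ± 0.11), with 33.6 and 33.4 CPM in activated cells with AGN192403 against 16.4 and 17.6 with vehicle, and 30.2 and 30.9 at rest with AGN192403 against 27.1 and 27.2 with vehicle. Of 17 G1 cyclins and CDK inhibitors tested, 4 had a higher and 3 a lower response (41.2% called, against 19.7% of all genes tested). Values of that list ran from -1.5 to 0.805, the latter that of Cdkn2b.

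**Figure D3:**
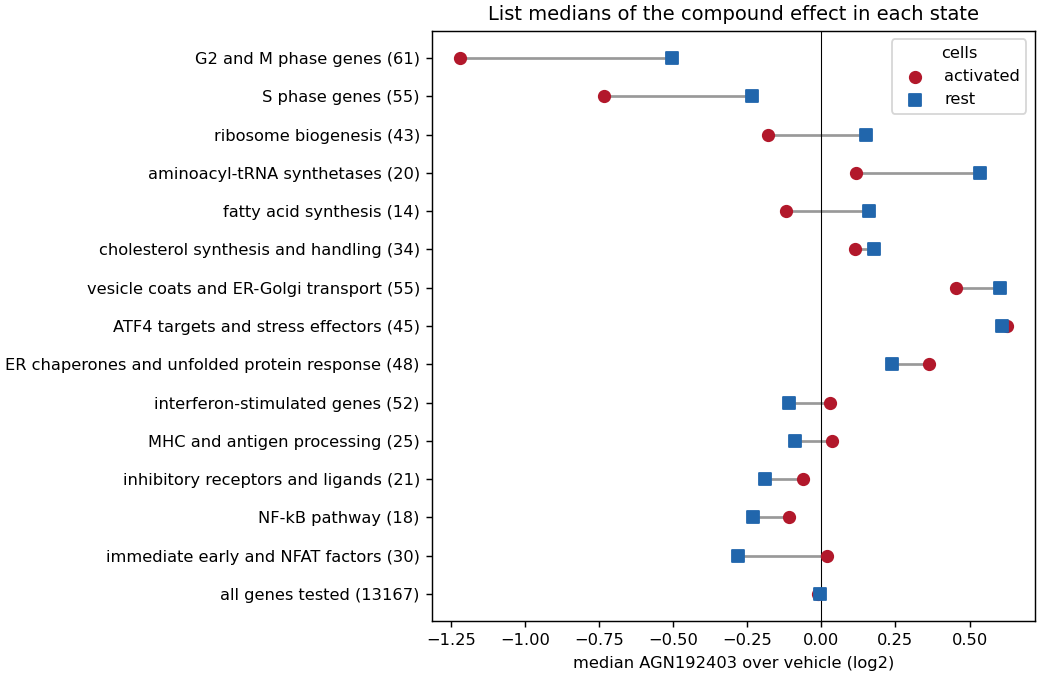
Median AGN192403 effect (log2, horizontal axis) of each gene list in activated cells (circles) and at rest (squares), with the number of members tested in parentheses. The distance between the symbols is about the response difference. G2 and M phase genes sit lowest, at -1.22 in activated cells and -0.503 at rest, and ribosome biogenesis genes lie on opposite sides of 0, at -0.18 in activated cells and 0.151 at rest.

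Ribosome biogenesis genes had a lower response with AGN192403, and the median effect of the list differed in sign between the states (0.151 at rest and -0.18 in activated cells). Most members with a called response difference had a compound effect called in 1 state only. Of 43 tested, 35 had a lower response with AGN192403 and 8 were not called, with a median response difference of -0.332. At rest AGN192403 raised 20 of them, and in activated cells it lowered 28 and raised 1. By class, 18 were activated only, 10 rest only and 7 opposite. Activation still raised the list in both cultures, by a median of 1.12 with AGN192403 and 1.37 with vehicle. Pno1, an assembly factor of the small ribosomal subunit, had 116 and 116 CPM in activated cells with AGN192403, against 121 and 116 with vehicle, and 57.7 and 57.6 at rest with AGN192403, against 36.8 and 38.4 with vehicle. Its groups overlapped after activation and stood apart at rest, and its response difference was -0.65 ± 0.08 (adjusted p = 8.7e-07). Tsr1, another small subunit factor, and Pes1, a large subunit factor, had the same form, with response differences of -0.51 ± 0.07 and -0.48 ± 0.07. Gnl3, the nucleolar GTPase nucleostemin, was higher at rest by 0.37 ± 0.05 and lower in activated cells by -0.12 ± 0.04. Mettl1, which methylates guanosine in tRNAs, had the most negative response difference of the rest-only genes named, with 37.5 and 39.7 CPM in activated cells with AGN192403, against 39.2 and 41.4 with vehicle, and 26.8 and 26.2 at rest with AGN192403, against 12.6 and 13.8 with vehicle (response difference -1.05 ± 0.12, adjusted p = 5.4e-07).

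The cytosolic aminoacyl-tRNA synthetases, which load amino acids onto tRNAs, were raised more at rest than after activation. Of 20 tested, 14 had a lower response with AGN192403 and 1, Wars, a higher one, with a median response difference of -0.279. AGN192403 raised 14 of them at rest (median 0.534) and, in activated cells, raised 10 and lowered 5 (median 0.116). The number lower was 7 without replicate 2 of the resting AGN192403 cells. Mars, which encodes methionyl-tRNA synthetase, had 202 and 214 CPM in activated cells with AGN192403, against 238 and 230 with vehicle, and 173 and 177 at rest with AGN192403, against 107 and 119 with vehicle. The order of the groups was therefore opposite in the 2 states, and the response difference was -0.80 ± 0.07 (adjusted p = 3.3e-08). Iars, for isoleucine, had 436 and 456 CPM in activated cells with AGN192403 against 401 and 413 with vehicle, and 313 and 308 at rest with AGN192403 against 188 and 197 with vehicle (response difference -0.55 ± 0.06). Yars, for tyrosine, had 191 and 205 CPM in activated cells with AGN192403 against 189 and 182 with vehicle, and 126 and 134 at rest with AGN192403 against 89.6 and 88.4 with vehicle (response difference -0.45 ± 0.07).

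The promoters of Iars and Yars are shown as members raised by AGN192403 at rest whose windows hold TGATGNAA, the core of the composite element bound by C/EBP and ATF factors such as ATF4, in capitals on either strand. The windows are chr13:49681880-49682179 and chr4:129189653-129189952, both on the plus strand of GRCm38.p6 from RefSeq.
Iars: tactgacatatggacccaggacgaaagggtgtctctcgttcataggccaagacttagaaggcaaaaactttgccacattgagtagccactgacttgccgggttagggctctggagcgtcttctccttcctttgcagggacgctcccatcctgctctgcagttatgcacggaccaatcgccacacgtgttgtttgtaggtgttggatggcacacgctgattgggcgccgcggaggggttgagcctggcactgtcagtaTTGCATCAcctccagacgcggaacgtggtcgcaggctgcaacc
Yars: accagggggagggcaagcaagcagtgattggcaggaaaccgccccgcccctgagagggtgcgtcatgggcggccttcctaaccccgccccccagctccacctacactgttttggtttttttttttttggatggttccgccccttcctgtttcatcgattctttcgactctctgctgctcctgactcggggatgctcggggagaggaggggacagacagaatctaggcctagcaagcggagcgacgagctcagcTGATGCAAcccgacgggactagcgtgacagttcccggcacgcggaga
The motif stood in 5 of the 13 windows of the 13 synthetase genes matched (38.5%), and in 12 of the 45 windows of genes listed as ATF4 targets (26.7%), of which 37 of 45 were matched. It was in 2.25% of the windows of genes tested and 3.97% of all windows. The second list was drawn up as ATF4 targets, so a high share there says nothing about AGN192403. A match is not evidence of binding, and a part of ATF4 in the response was not tested.

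**Figure D4:**
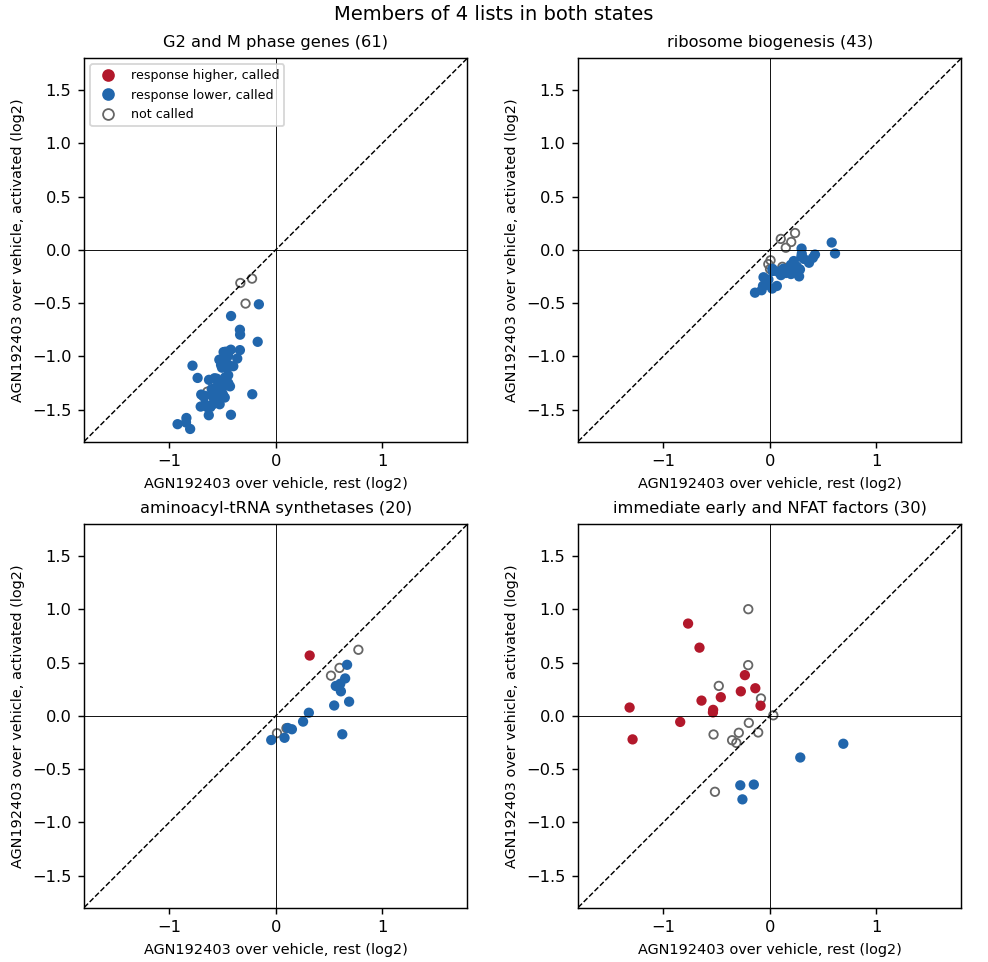
AGN192403 effect in activated cells (vertical axis, log2) against that at rest (horizontal axis, log2) for the members of 4 lists. Red and blue points were called for a higher and a lower response with AGN192403, open points were not called, and the dashed line marks equal effects. Nearly all G2 and M phase genes lie below the line in the lower left, and nearly all synthetases below it, mostly at the right. Of 30 immediate early and NFAT genes, 22 lie above it, 13 of them called.

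ATF4 targets, the genes of the integrated stress response and amino acid supply, were raised by AGN192403 in both states, and their response was divided. Of 45 tested, 40 were higher with AGN192403 in activated cells (median 0.627) and 37 at rest (median 0.608), while 10 had a higher and 13 a lower response. Slc6a9, a glycine transporter, had 52.7 and 54.8 CPM in activated cells with AGN192403 against 16.3 and 16.9 with vehicle, and 16.3 and 18.1 at rest with AGN192403 against 2.7 and 2.95 with vehicle. AGN192403 cells at rest thus overlapped vehicle cells after activation, and the response difference was -0.91 ± 0.18 (adjusted p = 7.4e-04). Slc1a4, a neutral amino acid transporter, differed by -0.72 ± 0.13. Stc2, a secreted stress-induced glycoprotein, had a compound effect of 0.69 ± 0.06 in activated cells and 0.12 ± 0.06 at rest, a response difference of 0.57 ± 0.08. Avil, encoding the actin-binding protein advillin and present in the list as a stress-induced gene, had 37.4 and 42.7 CPM in activated cells with AGN192403 against 3.75 and 4.36 with vehicle, and 14.8 and 13.6 at rest with AGN192403 against 9.49 and 7.41 with vehicle. Activation raised Avil with AGN192403 (log2 1.51) and lowered it with vehicle (-1.04), and its response difference of 2.55 ± 0.23 was the largest of any called gene that reached 10 CPM in a group and 10 reads in every group.

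Genes of the secretory pathway were also raised in both states. Of 55 genes for vesicle coats and ER to Golgi transport, AGN192403 raised 46 in activated cells (median 0.454) and 46 at rest (median 0.602), and 18 had a lower and 2 a higher response. Sec13, a COPII coat subunit, had 287 and 303 CPM in activated cells with AGN192403 against 187 and 198 with vehicle, and 206 and 206 at rest with AGN192403 against 91.2 and 93.2 with vehicle (response difference -0.54 ± 0.07, adjusted p = 2.0e-06). Kdelr2, which returns ER proteins from the Golgi, and Sec22b, a SNARE of these vesicles, differed by -0.45 ± 0.07 and -0.50 ± 0.08. Of 48 ER chaperones and unfolded protein response genes, AGN192403 raised 41 in activated cells (median 0.362) and 28 at rest (median 0.238), and 17 had a higher and 2 a lower response. Sel1l, an adaptor of ER-associated degradation, had 283 and 287 CPM in activated cells with AGN192403 against 150 and 149 with vehicle, and 161 and 162 at rest with AGN192403 against 121 and 130 with vehicle (response difference 0.57 ± 0.06, adjusted p = 3.7e-07). Dnajb9, an ER cochaperone, differed by 0.72 ± 0.16.

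The TMED cargo receptors were raised at rest in 6 of 9 members tested and in activated cells in 4, with 1 lower in activated cells. Tmed10 had 135 and 144 CPM in activated cells with AGN192403 against 128 and 125 with vehicle, and 133 and 138 at rest with AGN192403 against 116 and 117 with vehicle. Its response difference was -0.07 ± 0.07 (adjusted p = 0.50). Tmed9 had a compound effect of 0.30 ± 0.05 in activated cells and 0.46 ± 0.05 at rest, and Tmed2 had one of 0.35 ± 0.06 in activated cells and 0.45 ± 0.07 at rest. Neither was called for the response difference (-0.16 ± 0.07 for Tmed9 and -0.10 ± 0.10 for Tmed2). Of 9 members tested, Tmed1, Tmed3 and Tmed7 had a lower response (33.3%, against 11.1% of all genes tested), and none of these 3 calls held in every alternative. Tmed3 (-0.30 ± 0.08, adjusted p = 0.011) was not called in DESeq2 (adjusted p = 0.0891) or without any of 4 libraries, where its adjusted p reached 0.115 without replicate 2 of activated vehicle cells.

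Genes of lipid synthesis had mostly lower responses where they were called. Of 14 fatty acid synthesis genes, 7 had a lower response and the other 7 were not called, although all 14 values were below 0. AGN192403 raised 9 at rest and, in activated cells, raised 2 and lowered 6, and 4 of the 7 had opposite effects in the 2 states. Scd2, a stearoyl-CoA desaturase and the most abundant of those named, had 2442 and 2568 CPM in activated cells with AGN192403 against 2750 and 2792 with vehicle, and 2174 and 2136 at rest with AGN192403 against 1773 and 1815 with vehicle (response difference -0.41 ± 0.05, adjusted p = 8.6e-07). Scd1 and Elovl6, a fatty acid elongase, differed by -0.47 ± 0.07 and -0.48 ± 0.08 with opposite effects in the 2 states. In the cholesterol list 8 of 34 had a lower and 2 a higher response (29.4% called, against 19.7% of all genes tested). Fdps, farnesyl diphosphate synthase, had 85.2 and 81.2 CPM in activated cells with AGN192403 against 80.6 and 82.1 with vehicle, and 63.1 and 67.4 at rest with AGN192403 against 40.6 and 40 with vehicle (response difference -0.67 ± 0.08).

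Immediate early genes, the fast transcription factors of receptor signalling, were lower with AGN192403 at rest more often than after activation. Of 30 immediate early and NFAT family genes tested, 13 had a higher and 5 a lower response with AGN192403, with a median response difference of 0.373. At rest AGN192403 lowered 19 and raised 1 (median -0.283), and in activated cells it raised 9 and lowered 9 (median 0.0196). Egr1 (chromosome 18, 34859823 to 34864984, GRCm38) had 115 and 114 CPM in activated cells with AGN192403 against 58.7 and 66.9 with vehicle, and 223 and 216 at rest with AGN192403 against 373 and 372 with vehicle. The order of the groups was reversed between the states without overlap, and activation lowered Egr1 by 0.94 with AGN192403 and by 2.57 with vehicle on the log2 scale, a response difference of 1.63 ± 0.07 (adjusted p = 3.7e-14). Egr2, its paralogue, had 53.5 and 53.8 CPM in activated cells with AGN192403 against 31.1 and 37.8 with vehicle, and 2.85 and 2.36 at rest with AGN192403 against 4.40 and 3.78 with vehicle (response difference 1.30 ± 0.25).

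Fosb and Fos, which encode subunits of AP-1, had their larger effect at rest. Fosb had 19.2 and 18.5 CPM in activated cells with AGN192403 against 18.6 and 17 with vehicle, and 6.24 and 4.79 at rest with AGN192403 against 14.5 and 12.6 with vehicle. Its response difference was 1.39 ± 0.18, of which -1.31 ± 0.15 was the resting effect and 0.08 ± 0.11 the effect in activated cells. Fos had a resting effect of -1.29 ± 0.13 and a response difference of 1.07 ± 0.20. Junb, singled out after its values were seen, had 472 and 397 CPM in activated cells with AGN192403 against 433 and 469 with vehicle, and 128 and 122 at rest with AGN192403 against 211 and 234 with vehicle (0.78 ± 0.09). Atf3, a stress-induced member of the wider family, had the opposite sign (-0.95 ± 0.15), with 130 and 131 CPM in activated cells with AGN192403 against 150 and 163 with vehicle, and 9.41 and 10.1 at rest with AGN192403 against 6.19 and 5.98 with vehicle. Of 17 MAP kinase feedback genes tested, 3 had a higher and 1 a lower response (23.5% called, against 19.7% of all genes tested). Dusp6 and Dusp2, phosphatases that are induced by MAP kinases and act on them, were lower at rest (-0.16 ± 0.05 and -0.27 ± 0.06) and higher in activated cells (0.51 ± 0.06 and 0.29 ± 0.05). Dusp10, of the same family, had a lower response (-0.657, adjusted p = 0.0439), which was not called in 8 of 15 alternatives.

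Genes of the NF-kB pathway were also lower with AGN192403 at rest more often than after activation. At rest 14 of 18 were lower with AGN192403 (median -0.232), and in activated cells 8 were lower and 1 higher (median -0.109). A higher response was called for 8 and a lower one for 1. The lower one, Tnip3, which encodes a binding partner of the NF-kB inhibitor A20, had 12.4 and 11.8 CPM in activated cells with AGN192403 against 39.6 and 42.6 with vehicle, and 0.845 and 0.358 at rest with AGN192403 against 0.899 and 0.378 with vehicle. Its response difference of -1.65 ± 0.58 (adjusted p = 0.047) rests on few reads at rest and was not called in 4 of 15 alternatives. The count of 8 changed most among the lists followed, with 1 called higher in DESeq2, 4 without the filter on low counts, and 2, 3 and 4 without replicate 2 of resting AGN192403 cells, replicate 1 of activated vehicle cells and replicate 2 of resting vehicle cells. Icam1, an adhesion molecule under NF-kB control, had 168 and 172 CPM in activated cells with AGN192403 against 153 and 161 with vehicle, and 60.9 and 64.8 at rest with AGN192403 against 78.9 and 73.5 with vehicle (response difference 0.39 ± 0.08, adjusted p = 7.2e-04).

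**Figure D5:**
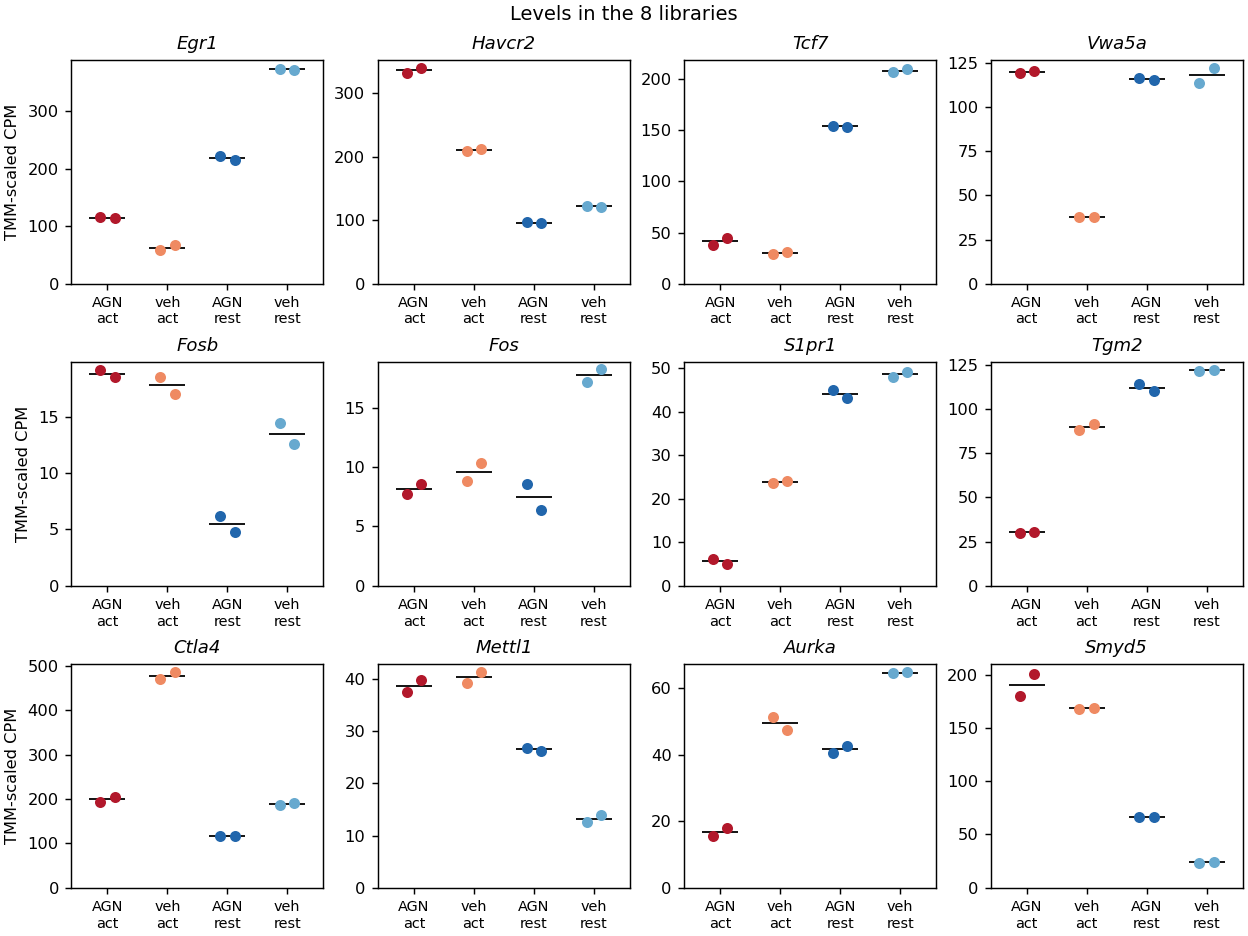
CPM (vertical axes, from 0) of 12 genes in the 8 libraries. Each point is a library, the horizontal line is the mean of the 2 libraries, AGN is AGN192403, veh is vehicle, act is activated and rest is resting. The AGN192403 and vehicle points of Egr1, Havcr2 and Tcf7 change order between the states, those of Fosb, Fos and Mettl1 stand apart at rest, those of Vwa5a, S1pr1 and Tgm2 stand apart mainly after activation, and those of Ctla4, Aurka and Smyd5 stand apart in both.

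Interferon-stimulated genes fell on activation in both cultures, by a median of -1.71 with AGN192403 and -1.7 with vehicle. Of 52 tested, 19 had a higher and 2 a lower response with AGN192403. At rest AGN192403 lowered 20, and in activated cells it raised 18 and lowered 12. Iigp1, an immunity-related GTPase, had 33.3 and 30.5 CPM in activated cells with AGN192403 against 10.1 and 12.5 with vehicle, and 196 and 207 at rest with AGN192403 against 192 and 202 with vehicle (response difference 1.46 ± 0.11, adjusted p = 2.0e-09). Mx1, an antiviral GTPase, had 40 and 42.3 CPM in activated cells with AGN192403 against 25.1 and 24 with vehicle, and 57.8 and 54.2 at rest with AGN192403 against 76.6 and 66.9 with vehicle (1.11 ± 0.11). Samhd1, which degrades nucleotides for DNA synthesis, had a lower response (-0.67 ± 0.06). Values of the list ran from -1.52 to 1.46.

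Of 25 genes for MHC molecules and antigen processing, 11 had a higher and 1 a lower response. At rest AGN192403 lowered 9 and raised 1, and in activated cells it raised 8 and lowered 2. Cd74, the invariant chain of MHC class II, had 78.1 and 89.4 CPM in activated cells with AGN192403 against 43.8 and 47.7 with vehicle, and 6.13 and 5.15 at rest with AGN192403 against 6.09 and 6.81 with vehicle (response difference 1.11 ± 0.19, adjusted p = 1.9e-04). Cd74 is also a marker of myeloid cells, whose 10 markers summed to 153 to 166 CPM in activated cells with AGN192403 and 101 to 107 with vehicle, and to 59.5 to 62.4 at rest with AGN192403 and 67 to 71.7 with vehicle. Cd74 and Cst3 together made up nearly all of the activated sum (means of 83.8 and 71.2 CPM with AGN192403, and 45.7 and 53.1 with vehicle), and the part of other cells in the result was not tested. Csf1r and Lyz2 had no read in activated cells. The 5 CD4 T cell markers summed to 89.9 to 95.8 CPM in activated cells with AGN192403 against 55.2 to 60 with vehicle, and Cd4 itself was at 0.52 against 0.752 CPM. At rest these markers summed to 84.1 to 86.1 CPM with AGN192403 and 92.5 to 98.1 with vehicle. Most of each sum was Zbtb7b, with means of 65.1 CPM in activated cells with AGN192403 against 34.2 with vehicle, and 55.2 at rest with AGN192403 against 58.4 with vehicle. H2-Ab1, a class II chain, was called at rest only (-0.87 ± 0.12), with 21.9 and 21.5 CPM in activated cells with AGN192403 against 25.8 and 24.5 with vehicle, and 8.45 and 12.2 at rest with AGN192403 against 20.1 and 19.1 with vehicle (response difference 0.66 ± 0.16). H2-Q7, a class I molecule, and Nlrc5, the transactivator of class I genes, had response differences of 0.38 ± 0.06 and 0.39 ± 0.08, both called at rest only.

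Inhibitory receptors and ligands moved in both directions, with 10 of 21 tested higher in response and 3 lower (median 0.228). At rest AGN192403 lowered 10 and raised 1 (median -0.19). In activated cells it lowered 9 and raised 6 (median -0.0634). Havcr2, encoding TIM-3 (chromosome 11, 46454935 to 46481255), had 332 and 340 CPM in activated cells with AGN192403 against 209 and 211 with vehicle, and 96.6 and 95 at rest with AGN192403 against 123 and 120 with vehicle. The groups changed order without overlap, activation raised Havcr2 by 1.81 with AGN192403 and by 0.79 with vehicle, and the response difference was 1.02 ± 0.06 (adjusted p = 3.5e-11). Ctla4 (chromosome 1, 60887000 to 60915832) had 194 and 205 CPM in activated cells with AGN192403 against 471 and 485 with vehicle, and 117 and 117 at rest with AGN192403 against 187 and 192 with vehicle. Ctla4 was thus lower in both states and more so after activation (-0.56 ± 0.06, adjusted p = 8.0e-07). Tigit, another inhibitory receptor, had 96.7 and 110 CPM in activated cells with AGN192403 against 146 and 156 with vehicle, and 21.5 and 21.6 at rest with AGN192403 against 22.4 and 18.8 with vehicle (-0.62 ± 0.12).

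Pdcd1, which encodes PD-1 (chromosome 1, 94038305 to 94052553), had 34.9 and 37.9 CPM in activated cells with AGN192403 against 42 and 45.7 with vehicle, and 13.2 and 13.4 at rest with AGN192403 against 21.6 and 21.9 with vehicle. It was lower in both states, by -0.26 ± 0.08 in activated cells and -0.71 ± 0.11 at rest, so that activation raised it more with AGN192403 (1.46) than with vehicle (1.01). The response difference of 0.45 ± 0.14 passed the test narrowly (adjusted p = 0.023). It did not pass in DESeq2 (adjusted p = 0.127) or without any of 5 libraries, with adjusted p of 0.0667 without replicate 2 of activated AGN192403 cells, 0.0525 and 0.0815 without replicate 1 and 2 of resting AGN192403 cells, 0.0797 without replicate 1 of activated vehicle cells, and 0.0771 without replicate 2 of resting vehicle cells. Lag3, an inhibitory receptor for MHC class II, was also lower in both states and was called under all 15 alternatives, at 258 and 287 CPM in activated cells with AGN192403 against 355 and 376 with vehicle, and 76.3 and 82.2 at rest with AGN192403 against 130 and 134 with vehicle (0.31 ± 0.07, adjusted p = 0.0037). Cd244a, encoding the receptor 2B4, was called at rest only (-0.51 ± 0.06, response difference 0.60 ± 0.11). Entpd1, encoding the ectonucleotidase CD39, differed by -0.26 ± 0.07 (adjusted p = 0.016), with the call lost in DESeq2 and without any of 3 libraries, replicate 1 of activated AGN192403 cells (adjusted p = 0.0598), replicate 1 of resting AGN192403 cells (0.088) and replicate 2 of activated vehicle cells (0.175).

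Of 24 costimulatory and activation receptors, 8 had a higher and 3 a lower response. At rest AGN192403 lowered 12 and raised 0 (median -0.172). In activated cells it lowered 9 and raised 6 (median -0.0368). Cd28, the main costimulatory receptor, had 255 and 260 CPM in activated cells with AGN192403 against 196 and 200 with vehicle, and 297 and 309 at rest with AGN192403 against 330 and 327 with vehicle (response difference 0.50 ± 0.06, adjusted p = 8.5e-07). Cd69, an early activation antigen that holds T cells in tissue, was called after activation only (0.43 ± 0.05, response difference 0.50 ± 0.08), and Cd44, an adhesion receptor of activated cells, changed order between the states (0.37 ± 0.06). Il2ra, the alpha chain of the IL-2 receptor, had 4136 and 4292 CPM in activated cells with AGN192403 against 5588 and 5743 with vehicle, and 1287 and 1272 at rest with AGN192403 against 1299 and 1312 with vehicle. The resting groups differed by -0.03 ± 0.03, and the response difference was -0.40 ± 0.05 (adjusted p = 6.6e-07). Tnfrsf8, encoding CD30, was lower in both states (-0.56 ± 0.07). Tnfrsf9, encoding 4-1BB, was not called, with a response difference of 0.06 ± 0.05.

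Cytokine genes moved in both directions. Of 29 tested, 7 had a higher and 5 a lower response, and 8 of these 12 were in the activated-only class. Il24, a cytokine of the IL-10 family, had 310 and 331 CPM in activated cells with AGN192403 against 933 and 930 with vehicle, and 36.4 and 40.7 at rest with AGN192403 against 45.3 and 43.3 with vehicle (response difference -1.35 ± 0.08, adjusted p = 3.5e-11). Lif, an IL-6 family cytokine, had 232 and 245 CPM in activated cells with AGN192403 against 521 and 524 with vehicle, and 170 and 168 at rest with AGN192403 against 176 and 178 with vehicle (-1.06 ± 0.06). Tnfsf10, the death ligand TRAIL, was lowered on activation with AGN192403 (-0.93) and raised with vehicle (0.58), a response difference of -1.50 ± 0.12. Csf2, encoding GM-CSF, had 113 and 119 CPM in activated cells with AGN192403 against 72.4 and 82.9 with vehicle, and 3.80 and 3.36 at rest with AGN192403 against 4.70 and 4.92 with vehicle (1.03 ± 0.21). Tnf had 123 and 132 CPM in activated cells with AGN192403 against 101 and 109 with vehicle, and 63.7 and 69.8 at rest with AGN192403 against 69.7 and 74 with vehicle (0.39 ± 0.08, adjusted p = 0.0011).

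Ifng, the interferon gamma gene, had 2802 and 3018 CPM in activated cells with AGN192403 against 4456 and 4664 with vehicle, and 7.4 and 6.29 at rest with AGN192403 against 8.79 and 7.49 with vehicle. The activated groups stood apart (-0.65 ± 0.04, adjusted p = 2.1e-12), and the resting groups differed by -0.26 ± 0.13 at a level of few reads. The response difference of -0.39 ± 0.14 was not called (adjusted p = 0.065), although it was called without replicate 2 of activated AGN192403 cells (adjusted p = 0.0268), without replicate 1 of activated vehicle cells (0.0471) and without replicate 1 of resting vehicle cells (0.0486). Il2 had 321 reads in activated cells with AGN192403 and 380 with vehicle. It had 0 reads at rest in both groups, which allows up to 0.131 CPM with AGN192403 and 0.129 CPM with vehicle (counting error only), so no response difference can be given for it. Xcl1, a chemokine for cross-presenting dendritic cells, had 597 and 636 CPM in activated cells with AGN192403 against 1028 and 1076 with vehicle, and 2.54 and 2.50 at rest with AGN192403 against 1.70 and 2.42 with vehicle. Its response difference of -1.02 ± 0.28 (adjusted p = 0.0090) was not called without replicate 2 of resting AGN192403 cells (adjusted p = 0.0707) or replicate 1 of resting vehicle cells (0.0654).

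Of 22 cytotoxic effector genes, 5 had a higher and 5 a lower response (45.5% called, against 19.7% of all genes tested). AGN192403 lowered 16 of them in activated cells and 13 at rest, where 18.3% and 13.7% of all genes tested were lower. Gzmb, which encodes granzyme B, had 12900 and 13914 CPM in activated cells with AGN192403 against 19550 and 20457 with vehicle, and 8460 and 8583 at rest with AGN192403 against 9438 and 9819 with vehicle. It was lower in both states and more so after activation (-0.40 ± 0.05, adjusted p = 1.7e-06). Prf1, encoding the pore-forming protein perforin, had 706 and 765 CPM in activated cells with AGN192403 against 927 and 952 with vehicle, and 186 and 178 at rest with AGN192403 against 286 and 289 with vehicle. It was also lower in both states but less so after activation (0.31 ± 0.06, adjusted p = 6.8e-04). Serpinb9, an inhibitor of granzyme B that protects the cell that makes it, had a resting effect of 0.00 ± 0.04 and a response difference of -0.53 ± 0.05. Gzmd and Gzmg, with response differences of 0.38 ± 0.06 and 0.43 ± 0.10, belong to a cluster of near-identical granzyme genes among which reads are assigned with uncertainty.

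Among transcription factors of memory and effector states, several changed order between the states. Tcf7, which encodes TCF1, a factor of stem-like T cells, had 38.2 and 44.9 CPM in activated cells with AGN192403 against 28.8 and 30.6 with vehicle, and 155 and 153 at rest with AGN192403 against 207 and 210 with vehicle (response difference 0.93 ± 0.09, adjusted p = 4.2e-08). Eomes, a T-box factor of CD8 memory, had 109 and 116 CPM in activated cells with AGN192403 against 81.9 and 82.3 with vehicle, and 128 and 137 at rest with AGN192403 against 162 and 173 with vehicle (0.79 ± 0.07). Prdm1, encoding BLIMP1, a transcriptional repressor active in terminal effector cells, was called at rest only. It had 54.6 and 54.9 CPM in activated cells with AGN192403 against 55.7 and 51.6 with vehicle, and 20.9 and 23 at rest with AGN192403 against 36.7 and 36.1 with vehicle (0.74 ± 0.10). Crem, a cAMP-responsive factor, was called after activation only (-0.97 ± 0.07), as did Rora, a nuclear receptor (0.91 ± 0.13). Of 21 memory genes tested 7 had a higher and 5 a lower response, and of 22 effector and exhaustion factors 7 and 4. AGN192403 lowered 14 of the memory genes and raised 1 at rest, and lowered 9 and raised 8 in activated cells. Of the effector and exhaustion factors it lowered 11 and raised 1 at rest, and lowered 9 and raised 6 in activated cells.

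Receptors that guide T cell traffic moved in both directions. S1pr1 (chromosome 3, 115710433 to 115715072), the receptor by which T cells leave lymphoid tissue, had 6.23 and 5.07 CPM in activated cells with AGN192403 against 23.7 and 24 with vehicle, and 44.9 and 43.1 at rest with AGN192403 against 48.1 and 49.2 with vehicle. Activation lowered it by 2.97 with AGN192403 and by 1.03 with vehicle on the log2 scale, and its response difference of -1.94 ± 0.15 (adjusted p = 2.0e-09) was the most negative under the same minimums. S1pr4, a related receptor, and Ccr7, which guides T cells to lymph nodes, went the other way (0.81 ± 0.08 and 0.66 ± 0.06), both lower with AGN192403 at rest and higher in activated cells. In all, 5 of 26 trafficking receptors had a higher and 6 a lower response (42.3% called, against 19.7% of all genes tested). AGN192403 lowered 11 and raised 0 of them at rest, and lowered 11 and raised 4 in activated cells.

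Further genes with large differences were named for their size. Vwa5a, a von Willebrand factor A domain protein, had 119 and 121 CPM in activated cells with AGN192403 against 37.8 and 38 with vehicle, and 117 and 115 at rest with AGN192403 against 114 and 123 with vehicle. Activation left it at log2 0.05 with AGN192403 and lowered it by 1.64 with vehicle (response difference 1.69 ± 0.07, adjusted p = 3.7e-14). Chchd10, a mitochondrial intermembrane space protein, had 72.2 and 67 CPM in activated cells with AGN192403 against 19.8 and 22.9 with vehicle, and 12.3 and 10.2 at rest with AGN192403 against 12.3 and 12.2 with vehicle (1.84 ± 0.15). Tgm2, a transglutaminase, had 30.1 and 30.6 CPM in activated cells with AGN192403 against 88.1 and 91.5 with vehicle, and 114 and 110 at rest with AGN192403 against 122 and 122 with vehicle (-1.44 ± 0.07). Smyd5, a SET and MYND domain methyltransferase, differed mainly at rest, at 180 and 201 CPM in activated cells with AGN192403 against 168 and 169 with vehicle, and 66.6 and 66.3 at rest with AGN192403 against 23.6 and 24.6 with vehicle (-1.28 ± 0.09). Slc4a11, a membrane transporter, had 15.7 and 15.6 CPM in activated cells with AGN192403 against 50.5 and 48.2 with vehicle, and 6.97 and 7.01 at rest with AGN192403 against 5.99 and 6.89 with vehicle (-1.76 ± 0.18). Of 27 cytokine receptors and feedback genes, 4 had a higher and 5 a lower response (33.3% called, against 19.7% of all genes tested). Among the lower ones was Socs3, an inhibitor of cytokine receptor signalling. Socs3 had 25.3 and 26.1 CPM in activated cells with AGN192403 against 74.9 and 66.7 with vehicle, and 26 and 26.1 at rest with AGN192403 against 32 and 39.7 with vehicle, so activation left it at -0.02 with AGN192403 and at 0.97 with vehicle (-0.98 ± 0.12).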

How the data were processed

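Poly(A) RNA of the libraries was sequenced as stranded single reads per the study's methods. The authors deposited raw read counts per gene, made with HTSeq on reads aligned by STAR (2.6.0c per the submitters' processing notes) to GRCm38/mm10, so overlapping and near-identical genes share reads. No value column was left unmapped (0). Of 46603 gene identifiers, 46091 took a symbol and position from GENCODE M21 (GRCm38), and the 512 without one held 0.0709% of counts.

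All 12 libraries in 6 groups were fitted with edgeR 4.0.16 in R 4.3.3 (filterByExpr, 13167 genes holding 99.91% of counts, TMM factors 0.976 to 1.02, quasi-likelihood F test, 6 residual degrees of freedom, tested on simulated data). All p-values are two-sided and Benjamini-Hochberg adjusted over all genes tested, called under 0.05, and the SE is the log2 value divided by the square root of F. Intervals from reads cover counting error only. Named genes were a fixed set of receptors, cytokines and TMED genes, then the 15 largest rises and falls, 6 per class and up to 5 called members per list (all called ones in 4 lists of cytokines, chemokines and receptors), with at least 10 CPM in a group and 10 reads in each group for those named by size. Others are said to be chosen after their values were seen. The members, lists and rule were chosen with earlier results of these data known. Alternatives were DESeq2 1.42.0, other scalings and filters, the replicate block, the 8 libraries alone and leaving out each library. Some results are not reported here.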

Additional observations from a re-analysis of the deposited data

Results flagged for a closer look

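The AGN192403 effect differed between activated and resting cells in 2592 genes by the test of that difference, and in 273 of them it was called in opposite directions in the 2 states. Of those 273, 16 differed by at least 2-fold in edgeR, and those among them that the rule for named genes picked follow. The long noncoding RNA Miat had 8.21 and 6.69 CPM in activated cells with AGN192403 against 1.33 and 1.76 with vehicle, and 0.951 and 0.715 at rest with AGN192403 against 2.2 and 2.19 with vehicle, a response difference of 3.67 at a low level. Hid1 differed by 1.99, with 32.2 and 33.1 CPM in activated cells with AGN192403 against 10.7 and 10.1 with vehicle, and 26 and 24.9 at rest with AGN192403 against 34 and 30.5 with vehicle. The others were Egr1 at 1.63, Slc9a9 at 1.5, Egr2 at 1.30, Gm26917 at 1.30, Tbc1d4 at 1.18, Mx1 at 1.11 and Havcr2 at 1.02. Those named here were lower with AGN192403 at rest and higher in activated cells, which does not hold for all 16.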

How the results depend on the processing

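DESeq2 called 1395 genes for the response difference, 1834 for the compound effect at rest and 2884 in activated cells. Its classes held 669 genes (activated only), 271 (rest only), 260 (same direction) and 115 (opposite), and it called 1 NF-kB gene higher, against 4 without the filter on low counts. With an adjusted p of 0.01 for the 2 compound effects, 116 genes were opposite and 452 in neither class. Sorted by the larger absolute effect, 871 genes fell to the resting side. With each library left out in turn, 1782 to 2842 genes were called for the response difference, 1861 to 3701 at rest, 854 to 1138 in the activated-only class, 267 to 687 rest only, 282 to 495 in the same direction, 118 to 341 opposite and 70 to 181 in neither, with 7 to 19 synthetases lower and 2 to 8 NF-kB genes higher. The lowest of these counts for the response difference, at rest, rest only, same direction, opposite, synthetases and NF-kB came without replicate 2 of resting AGN192403 cells. Without replicate 1 of resting vehicle cells, 366 genes were rest only and 169 opposite. The lowest count in neither class came without replicate 1 of activated AGN192403 cells and the highest without replicate 2. The cause was not tested.

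Libraries with the same replicate number had correlations of their deviations of -0.00507 to 0.239 over 15 pairs of groups. The 3 pairs over 0.1 were those among activated AGN192403, activated vehicle and resting vehicle cells (0.213, 0.239 and 0.189), while resting AGN192403 cells reached 0.0196 with any other group. The labels do not say that a number marks a shared source, so the numbers were not taken to pair the samples. With the replicate block 2918 genes were called. Of the alternatives for counts, 313 stayed within 1.5 times the count reported and 24 did not. Those for gene lists were added after seeing the data. Of 198 named genes called, 147 were called under all alternatives run, 51 lost the call in at least 1 (30 with DESeq2), and 0 changed sign. With 2 libraries per group, genes of few reads, such as Ifng and Xcl1 at rest, limit the precision.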

Other observations

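Further gene groups are given beside all genes tested, of which 8.62% had a higher and 11.1% a lower response (19.7% in all). Of 27 p53 target genes tested, 5 had a higher and 3 a lower response with AGN192403, or 29.6% in all, and of 15 BCL2 family genes 3 and 1, or 26.7%. Bbc3, encoding the death protein PUMA, had 21.4 and 20.7 CPM in activated cells with AGN192403 against 9.41 and 9.57 with vehicle, and 34.5 and 30.5 at rest with AGN192403 against 28.9 and 36.1 with vehicle (response difference 1.18 ± 0.16). The groups overlapped at rest and stood apart after activation. Bcl2l11, encoding BIM, another death-promoting member of the family, had 41.1 and 41.2 CPM in activated cells with AGN192403 against 27 and 26.2 with vehicle, and 202 and 202 at rest with AGN192403 against 210 and 210 with vehicle (0.68 ± 0.08). The called members were not of 1 kind. Of the survival members, Bcl2a1d differed by 1.23 (adjusted p = 0.0133) and Bcl2l1 by -0.259 (adjusted p = 0.00925). Each of these 2 calls was lost in 3 of 15 alternatives. Sqstm1, the autophagy receptor p62, was higher with AGN192403 in both states, by 1.30 ± 0.04 in activated cells and 0.56 ± 0.04 at rest (0.75 ± 0.06).

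Nuclear-encoded mitochondrial genes were called about as often as all genes tested, but nearly all of their calls were lower responses. Of 78 mitochondrial ribosomal protein genes, 16 had a lower and 1 a higher response (21.8% called, median -0.183). Among 57 nuclear genes of oxidative phosphorylation these counts were 12 and 1 (22.8% called, median -0.131). Over all genes tested 11.1% were lower and 8.62% higher. Of 7 mitochondrially encoded genes tested, 0 were called (median -0.0884). Glycolysis genes were lower with AGN192403 in both states, 20 of 25 in activated cells and 19 of 25 at rest, and 3 had a lower response. Klrd1, which encodes the killer lectin receptor CD94, was lower with AGN192403 at rest (-0.19 ± 0.04) and higher in activated cells (0.39 ± 0.05), a response difference of 0.59 ± 0.07.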
